A study of Mus musculus with 7 samples.

Results

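The features described here are 9 microRNA genes that have been linked to cardiac stress, fibrosis and low oxygen in the heart: Mir21a, Mir210, Mir199a-1, Mir199a-2, Mir214, Mir23a, Mir24-2, Mir27a and Mir195a. They were taken by name from the 49584 listed features, of which 2202 were microRNA features, and all 9 were found. Small RNA had been sequenced from crude heart mitochondria of 4 knockout mice (genotype Tefm -/-, loxP-flanked alleles with cre, labelled L/L, cre) and 3 control mice (genotype Tefm +/+ by the labels, loxP-flanked alleles without cre, labelled L/L). Both groups therefore carried the flanked exon, and the promoter that drives cre, that of muscle creatine kinase, works in heart and skeletal muscle cells, so other cells of the heart keep the gene. Tefm encodes a factor that lets the mitochondrial RNA polymerase elongate, and the knockout was compared with the control to see how its loss changes the RNAs found with heart mitochondria. The sources used here give no age for the mice. Each library was taken as 1 mouse, so that p-values measure only the spread between libraries where this does not hold.

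MicroRNAs are short RNAs that are cut from a hairpin in a longer transcript, loaded into an Argonaute protein and guided to messenger RNAs by their seed, bases 2 to 8 of the mature strand. Several of them are induced when the heart is overloaded or short of oxygen: miR-210 is the microRNA most closely tied to hypoxia and represses iron-sulfur cluster and respiratory chain factors, while miR-21, miR-199a and miR-214 are known from fibrosis, hypertrophy and calcium handling. miR-23a, miR-27a and miR-24 are cut from 1 primary transcript and have been linked to hypertrophy, and miR-195 belongs to the miR-15 family, which restrains the cell cycle of cardiomyocytes.

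The mature sequences are shown because the feature counts are kept per hairpin gene, and it is the mature sequence that decides which genes a read could come from. They are RefSeq sequences on build GRCm38.p6, where all 9 members were matched, written 5′ to 3′ with the seed in capitals. The first lines are the members that had counts, with miR-27b-3p as the closest relative of miR-27a-3p, and the last lines are the members that had none.
miR-210-3p: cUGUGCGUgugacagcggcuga
miR-23a-3p: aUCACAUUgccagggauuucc
miR-27a-3p: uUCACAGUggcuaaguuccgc
miR-27b-3p: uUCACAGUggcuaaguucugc
miR-24-3p: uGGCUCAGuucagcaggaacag
miR-24-2-5p: gUGCCUACugagcugaaacagu
miR-195a-5p: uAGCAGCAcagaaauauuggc
miR-21a-5p: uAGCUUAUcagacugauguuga
miR-214-3p: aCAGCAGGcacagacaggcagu
miR-199a-5p: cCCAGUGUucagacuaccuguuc
miR-199a-3p: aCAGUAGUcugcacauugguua

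Among these, miR-27a-3p and miR-27b-3p had the same seed and differed by C19U alone, counted from 1 at the 5′ end of miR-27a-3p. miR-24-3p is encoded by both Mir24-1 and Mir24-2, whereas miR-24-2-5p is encoded by Mir24-2 alone in that table. The seed of miR-195a-5p occurred in 11 genes of the table, among them Mir15a, Mir15b, Mir16-1, Mir16-2, Mir322 and Mir497, and the seed of miR-210-3p in Mir210 alone. miR-199a-5p is encoded by Mir199a-1 and Mir199a-2, and miR-199a-3p by these genes and by Mir199b. Which arm of a hairpin was counted cannot be read from counts per gene.

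The libraries were shallow for microRNAs and differed in how much of them they held. Total counts ran from 973835 to 1302619 in knockouts and from 1560798 to 2570739 in controls. MicroRNA features took 6.34%, 19.3%, 7.76% and 2.17% of the counts in knockouts 1 to 4, against 15.2%, 1.93% and 4.80% in controls 1 to 3. The microRNA totals were 81276, 251172, 75534 and 22486 in knockouts and 237859, 49594 and 96810 in controls. The targeted gene could not check the labels, since Tefm had 3 counts over all knockouts and 3 counts over all controls. For these reasons the members were followed as shares of all counts at microRNA features within each library. Such a share is not scaled by the microRNA content, but it does depend on which features make up the total. The test on normalised counts of all features is given beside it. The total followed the deposited feature type and included Snord43, at 5.90% to 7.69% in knockouts and 3.27% to 8.58% in controls. Mir6240, Mir6236 and Gm23935 were in it too, and each had its largest share in knockout 4. With Mir-named features alone as the total, 46 of 129 were called at an adjusted p under 0.05, Mir210, Mir24-2 and Mir23a among them. No total without Mir6240 and Mir6236 was tried.

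Counts were found for 5 of the 9 members and for none of the others. Mir21a, the fibroblast-rich microRNA that accumulates in failing hearts, had 0 counts in all 7 libraries, as did Mir199a-1, Mir199a-2 and Mir214. In knockout 2, which had the most microRNA counts, 0 of 251172 counts allows a share of up to 0.00119%, and in knockout 4, which had the fewest, 0 of 22486 allows up to 0.0133%. In controls the same limit lay between 0.00126% and 0.00605%. These limits, like the intervals on shares below, cover counting error only, since no molecular identifiers are described. No comparison between the groups was possible for these 4 genes, and the authors' deposited table lists them with a mean of 0 and no fold change.

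The 4 genes without counts shared features of position or sequence with other genes, on the genome that the submitters' processing notes name as mm10 (GRCm38). The Mir21a hairpin (ENSMUSG00000065455.1, chromosome 11, 86584067 to 86584158, minus strand) lay wholly within a same-strand exon of Vmp1 in GENCODE M21. Mir199a-2 (ENSMUSG00000070126.1, chromosome 1, 162217814 to 162217923, plus strand) and Mir214 (ENSMUSG00000065516.1, chromosome 1, 162223368 to 162223477, plus strand) both lay wholly within an exon of the noncoding gene Dnm3os. Mir199a-1 (ENSMUSG00000065547.1, chromosome 9, 21496495 to 21496564, minus strand) lay in no same-strand exon of another gene, but both of its mature sequences are also those of Mir199a-2.

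Zero counts were common among microRNA features of these kinds. Of 282 microRNA features whose hairpin lay wholly within a same-strand exon of another gene, 13 (4.61%) had a count in any library. Of 425 that lay in such an exon wholly or in part, 35 (8.24%) had one. Of 1777 that lay in none, even in part, 348 (19.6%) had one. Of 38 features whose mature sequences were all shared with another gene, 3 (7.89%) had counts, the highest at 353 over all libraries, and of 982 with a mature sequence of their own 332 (33.8%) had counts. Mir27b, wholly within an exon of 2010111I01Rik, had 86701 counts. Vmp1 itself had 2, 4, 2 and 15 counts in knockouts and 2, 9 and 1 in controls. Dnm3os had 1, 0, 2 and 4 in knockouts and 0, 1 and 0 in controls. The reason for the zero counts was not tested. How the authors' counting treated reads in overlapping features or reads that map to several places is not recorded in the labels, so a count of 0 at these genes is not a measurement that the microRNA was absent.

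The 5 counted members were a small part of the microRNA pool in every library. Together they took 2.31%, 2.08%, 1.97% and 1.57% of microRNA counts in knockouts 1 to 4, against 1.39%, 1.498% and 1.31% in controls 1 to 3. The means were 1.98% ± 0.31 (SD, n = 4) in knockouts and 1.40% ± 0.09 (SD, n = 3) in controls, and the groups did not overlap. Of the 131 microRNA features that passed the low-count filter, 44 (33.6%) likewise had every knockout above every control. The median log2 fold change of all 131 was 0.43, so a higher share was not particular to the members. Mir27a alone gave 45.4% of all member counts, followed by Mir23a with 24.9%, Mir195a with 18.03%, Mir24-2 with 8.29% and Mir210 with 3.37%. Per base of annotated mature sequence the order was the same, from 151 counts at Mir27a over 82.7 at Mir23a, 59.8 at Mir195a and 26.9 at Mir24-2 to 10.9 at Mir210. The neighbours Mir23a and Mir195a were the closest in level: their shares ran from 0.347% to 0.573% and from 0.320% to 0.461% in knockouts, which overlap, and from 0.296% to 0.319% and from 0.231% to 0.270% in controls, which do not.

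As shares of microRNA counts, Mir210, Mir24-2 and Mir23a were higher in knockout heart mitochondria, by 3.10-fold, 2.62-fold and 1.58-fold in the fit, and Mir195a and Mir27a did not pass the test. Of the 131 microRNA features that passed the low-count filter, 45 (34.4%) were called at an adjusted p under 0.05, 38 (29%) of them higher and 7 (5.34%) lower in knockouts. The split depended on the scaling: with TMM on the microRNA features 42 were called, 24 higher and 18 lower, and with Mir143 out of the denominator 32 were called, 23 higher and 9 lower. The 3 called members of 5 tested stand against that background, and in the same fit the median log2 fold change of all 131 features was 0.43. In 4 of the 5 the groups did not overlap, with every knockout library above every control library, against 44 (33.6%) of the 131 features, and a further 11 (8.4%) had every knockout library below every control library. The members' values in each library are given below in order of their roles.

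**Figure D1:**
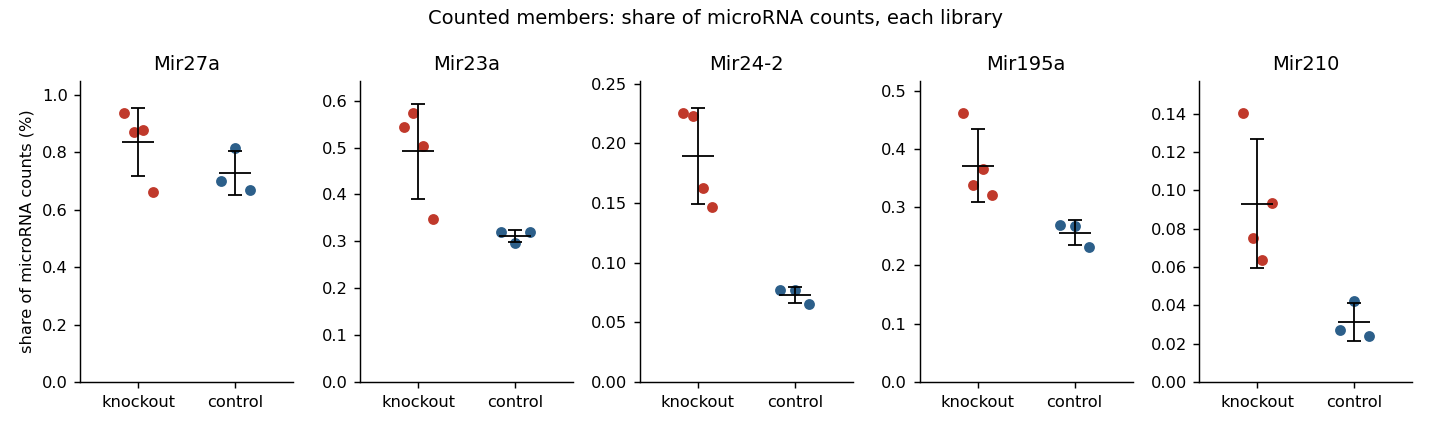
Share of microRNA counts (%) of the 5 members with counts, 1 point for each library, with 4 knockouts on the left and 3 controls on the right of each panel; bars are the mean and SD, and each vertical axis starts at 0 with its own scale. The knockout points of Mir210, Mir24-2, Mir23a and Mir195a all lie above the control points, and those of Mir27a, between 0.663% and 0.936%, overlap the controls, between 0.670% and 0.815%.

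Mir210, the hypoxia-induced member (ENSMUSG00000065551.1, chromosome 7, 141221384 to 141221493, minus strand), had the largest fold change and the fewest counts of the 5 members with counts. It had 114, 189, 48 and 21 counts in knockouts 1 to 4 and 65, 21 and 23 in controls 1 to 3. These were 0.140%, 0.0752%, 0.0635% and 0.0934% of microRNA counts in knockouts, against 0.0273%, 0.0423% and 0.0238% in controls. The lowest knockout share thus exceeded the highest control share, but with 48 counts in knockout 3 (95% Wilson interval 0.0479% to 0.0842%) and 21 in control 2 (0.0277% to 0.0647%) the intervals of these neighbouring libraries overlapped. The log2 fold change was 1.63 ± 0.33 (SE; edgeR quasi-likelihood test, adjusted p = 0.00618), the 8th largest of the 131 features. It passed under every alternative tried on the shares and with each library left out, with a highest adjusted p of 0.0394.

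Mir24-2, Mir23a and Mir27a lie within 1 short stretch of chromosome 8, on the plus strand. Mir24-2 (ENSMUSG00000065541.1, 84208815 to 84208921) gives miR-24, which represses Jph2, a protein that holds calcium channels close together in cardiomyocytes, and the proapoptotic Bcl2l11. It had 183, 559, 123 and 33 counts in knockouts and 184, 38 and 63 in controls, or 0.225%, 0.223%, 0.163% and 0.147% of microRNA counts in knockouts, against 0.0774%, 0.0766% and 0.0651% in controls. All 4 knockout libraries were well above the controls, which lay close together. The log2 fold change was 1.39 ± 0.22 (SE; edgeR adjusted p = 0.00208), and it passed under every alternative tried on the shares, with a highest adjusted p of 0.0164. Only 2 of the 107 bases of its hairpin lay in a same-strand exon of another gene, Gm26532, and Mir3074-2 on the opposite strand had 0 counts. Mir24-1, the other source of miR-24-3p, had 3, 7, 2 and 0 counts in knockouts and 2, 0 and 0 in controls. Over all libraries Mir24-1 had 14 counts, against 1183 at Mir24-2. How reads of the shared strand were assigned, or whether they were counted at all, was not tested. Which strand of Mir24-2 was counted is not known, so its counts are not a measure of miR-24-3p.

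Mir23a (ENSMUSG00000065611.1, 84208518 to 84208592) gives miR-23a, which represses the muscle ubiquitin ligase Trim63. It had 443, 1440, 380 and 78 counts in knockouts and 759, 147 and 309 in controls. Its shares were 0.545%, 0.573%, 0.503% and 0.347% in knockouts and 0.319%, 0.296% and 0.319% in controls. Knockout 4 lay just above the controls and the other knockouts well above them. The log2 fold change of 0.66 ± 0.23 (SE) was 0.23 above the median of all microRNA features tested. It barely passed the test (edgeR adjusted p = 0.0478). The call was lost when any library except knockout 4 was left out, with adjusted p up to 0.160, and also when Mir143 was taken out of the denominator (log2 fold change 0.46, adjusted p = 0.144), when the microRNAs were scaled by TMM (0.35, adjusted p = 0.133) or when no low-count filter was used (0.66, adjusted p = 0.0792).

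Mir27a (ENSMUSG00000065444.1, 84208672 to 84208758), between them on the same transcript, gives miR-27a, which is known to repress the adipogenic receptor Pparg. It was the most abundant member, with 761, 2184, 662 and 149 counts in knockouts and 1663, 404 and 649 in controls. Its shares of 0.936%, 0.870%, 0.876% and 0.663% in knockouts overlapped those of 0.699%, 0.815% and 0.670% in controls. The log2 fold change was 0.20 ± 0.20 (SE; edgeR adjusted p = 0.454), below the median of 0.43 of all microRNA features tested, and it was -0.11 with TMM scaling of the microRNAs.

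Mir195a (ENSMUSG00000065411.2, chromosome 11, 70235042 to 70235135, plus strand), the member of the miR-15 family, had 375, 850, 276 and 72 counts in knockouts and 642, 133 and 224 in controls. Its shares were 0.461%, 0.338%, 0.365% and 0.320% in knockouts and 0.270%, 0.268% and 0.231% in controls. The groups did not overlap, and knockout 1 was the highest. The log2 fold change was 0.54 ± 0.21 (SE) and missed the threshold (edgeR adjusted p = 0.0748). DESeq2 on the same shares gave an adjusted p of 0.0436, and the fit without knockout 4 gave 0.0371.

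A rise in shares is partly set by the most abundant feature. Mir143, which is rich in smooth muscle, was the largest microRNA feature, at 21.7% ± 1.602 of microRNA counts (SD, n = 4) in knockouts and 31.8% ± 3.61 (SD, n = 3) in controls. Its share fell by 0.55 in log2 units (SE 0.11; edgeR adjusted p = 0.00672), and the share of the others is correspondingly larger. Without it in the denominator the median log2 fold change of the microRNAs was 0.23, and with TMM scaling 0.11. Under these settings Mir210 and Mir24-2 stayed called, with fold changes of at least 1.296 and 1.07 on the log2 scale over all alternatives. The markers of smooth muscle and pericytes that are not microRNAs summed to 23.1 to 84.2 normalised counts (CPM) in knockouts and 52.3 to 91.4 in controls, none of the 5 being at 0 throughout, and their part in these differences was not tested.

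**Figure D2:**
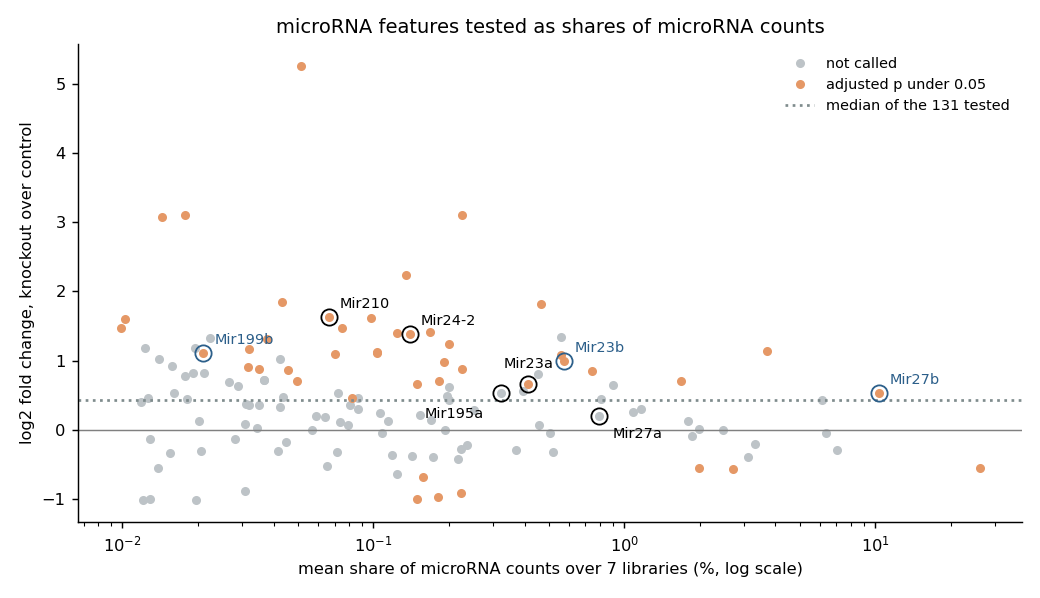
Log2 fold change of knockout over control against the mean share of microRNA counts (%, log scale) for the 131 microRNA features tested, 1 point for each feature, with called features in orange and the dotted line at the median of all 131, 0.43. Mir210 and Mir24-2 lie more than 0.9 above that line, Mir23a 0.23 and Mir195a 0.10 above it, and Mir27a 0.23 below it. Mir23b, Mir27b and Mir199b are ringed in blue.

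On normalised counts of all features, no member passed the test. Of 1505 features tested, 105 (6.98%) were called, 79 (5.25%) higher and 26 (1.73%) lower in knockouts. DESeq2 called 231, 131 higher and 100 lower, and scaling to total counts 8, 7 higher and 1 lower. The edgeR count of 105 fell to 0 without control 2 or control 3, with 395 and 407 features at an unadjusted p under 0.05, and lay between 25 and 54 without control 1 or knockout 2, 3 or 4. None of the 136 microRNA features was called (0%; edgeR), with 3 of them at an unadjusted p under 0.05; DESeq2 called 3 of the 136, none of them a member. The log2 fold changes were 1.76 ± 1.19 (SE; edgeR adjusted p = 0.414) at Mir210 and 1.53 ± 1.31 (adjusted p = 0.529) at Mir24-2. For Mir23a it was 0.80 ± 1.29 (edgeR adjusted p = 0.774), for Mir195a 0.52 ± 1.22 (0.862) and for Mir27a 0.34 ± 1.23 (0.911). The standard errors were several times as large as those of the shares. With 1 library left out the log2 fold change ran from 1.23 (without control 2) to 2.95 (without control 1) at Mir210 and from 0.67 (without knockout 2) to 2.90 (without control 1) at Mir24-2. The authors' deposited table, whose fold changes at these genes have the same sign, gave a log2 fold change of 1.105 with a standard error of 0.76 at Mir210 (adjusted p = 0.584) and of 0.92 with 0.78 at Mir24-2 (adjusted p = 0.692).

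Normalised counts spread widely within both groups. Mir210 was at 174, 190, 31.7 and 6.62 normalised counts (CPM, scaled to normalised library size) in knockouts 1 to 4, against 65.4, 8.24 and 15.7 in controls 1 to 3. The value in a library did not simply follow its microRNA content, since knockout 1 at 6.34% was above knockout 3 at 7.76% and control 1 at 15.2%. Knockout 4, which had the largest TMM factor (3.28), had the lowest CPM of all 7 libraries at each of the 5 members, and knockout 2, which had the highest microRNA content, had the highest. As a share of all counts, with no TMM factor, Mir210 took 0.00203% in knockout 4, which was above controls 2 (0.000817%) and 3 (0.00114%). Mir27a ranged from 47.0 to 2192 CPM over the knockouts and from 158 to 1674 over the controls. The groups overlapped in CPM for all 5 members.

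**Figure D3:**
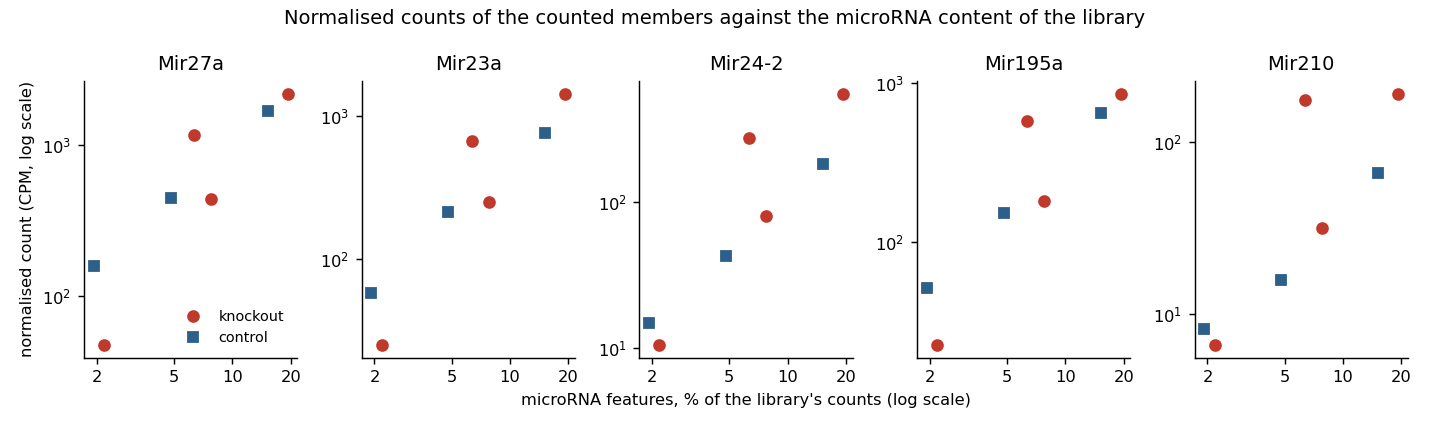
Normalised counts (CPM, log scale) of the 5 counted members against the percentage of the library's counts at microRNA features (log scale), with 4 knockouts as circles and 3 controls as squares. For every member the library with the highest microRNA content, knockout 2 at 19.3%, has the highest CPM, and knockout 4 at 2.17% has the lowest, below control 2, whose content was 1.93%.

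**Figure D4:**
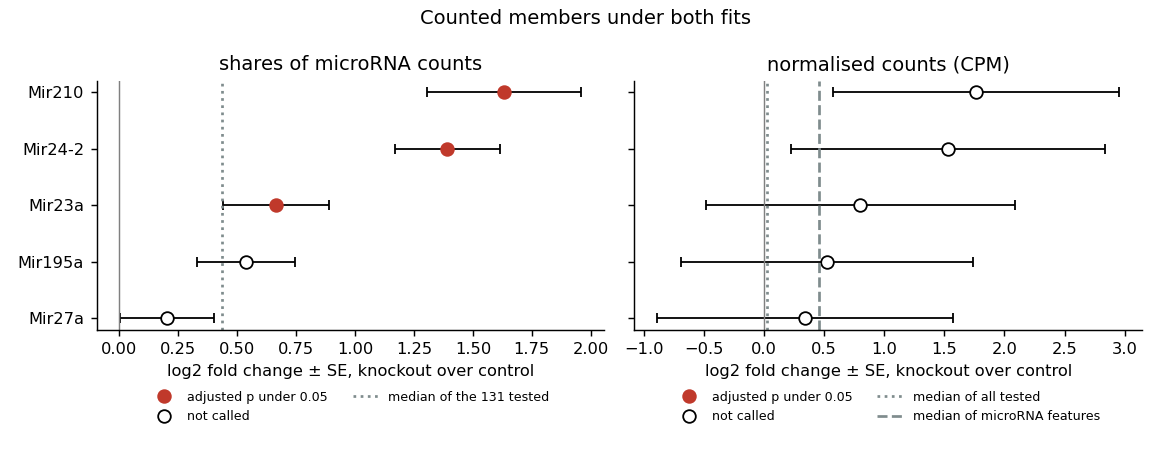
Log2 fold change of knockout over control with its SE for the 5 counted members, fitted on shares of microRNA counts (left) and on normalised counts of all features (right); filled points are called at an adjusted p under 0.05, and lines mark the medians of the features tested. Mir210, Mir24-2 and Mir23a are called on shares, and on normalised counts the errors are above 1.1 for each member and none is called.

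Ratios within the Mir23a cluster, whose 3 hairpins come from 1 primary transcript, separated the groups without any scaling. The ratio of 2 counts in a library does not depend on its depth or on its microRNA content. Mir24-2 had 0.413, 0.388, 0.324 and 0.423 counts for each count of Mir23a in knockouts 1 to 4, against 0.242, 0.259 and 0.204 in controls 1 to 3. On the log2 scale with a pseudocount of 0.5 the means were -1.37 ± 0.18 (SD, n = 4) in knockouts and -2.09 ± 0.18 (SD, n = 3) in controls, a difference of 0.72. Mir27a had 1.72, 1.52, 1.74 and 1.91 counts for each count of Mir23a in knockouts, against 2.19, 2.75 and 2.10 in controls. The means were 0.78 ± 0.14 (SD, n = 4) in knockouts and 1.22 ± 0.21 (SD, n = 3) in controls, a difference of -0.44.

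In both ratios no knockout library overlapped a control library, Mir24-2 being higher and Mir27a lower relative to Mir23a. For either ratio, of the 35 ways to draw 4 and 3 libraries from the 7, the observed one alone gave an absolute difference this large (exact permutation test, p = 0.0286, the smallest it can give; the same after Benjamini-Hochberg adjustment over the 2 ratios). The exact permutation p is 0.0571 when the smaller tail is doubled instead, a definition that cannot pass 0.05 with 4 and 3 libraries, so the call depends on how the two-sided p is defined. Both definitions had been computed before the one stated first was kept, which is the one that the planned smallest p belongs to. The ratios share Mir23a and are not independent of each other. The planned ratios of Mir214 over Mir199a-2 and of Mir199a-1 over Mir199a-2 had no counts. The adjustment, planned over 4 ratios, was therefore made over the 2 with counts, which is less strict.

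Further ratios, chosen after the values were seen and given with no test, set these beside the paralogous cluster. Mir27b over Mir23b, the pair on chromosome 13, had log2 ratios from 3.91 to 4.24 in knockouts and from 4.19 to 4.73 in controls, with means of 4.05 ± 0.14 (SD, n = 4) in knockouts and 4.48 ± 0.27 (SD, n = 3) in controls. The difference of -0.44 was in the same direction as that of Mir27a over Mir23a, but the groups overlapped. Mir24-2 over Mir27a averaged -2.15 ± 0.20 in knockouts and -3.31 ± 0.12 in controls on the log2 scale. Mir497 over Mir195a, neighbours in the genome and in seed, averaged -2.03 ± 0.34 in knockouts and -1.93 ± 0.31 in controls, with overlapping groups.

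**Figure D5:**
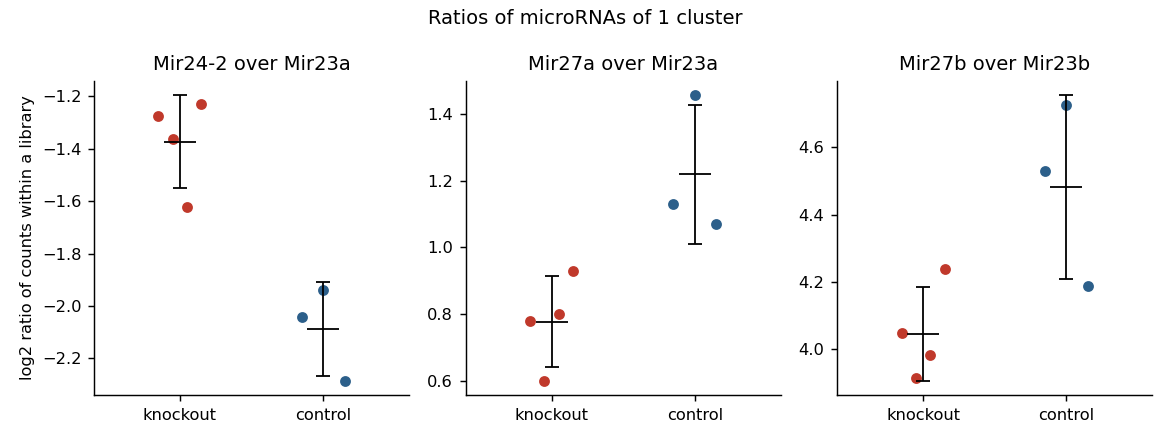
Log2 ratio of counts of 2 microRNAs of 1 cluster within a library (pseudocount 0.5), 1 point for each of 4 knockouts (left) and 3 controls (right), with mean and SD; each panel has its own vertical scale, which does not start at 0. Mir24-2 over Mir23a is higher in every knockout, Mir27a over Mir23a is lower in every knockout, and Mir27b over Mir23b overlaps between the groups.

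Copies and seed relatives of the members were higher in knockouts where they passed the test. Of 12 relatives listed, 8 were tested on shares, of which 3 rose and none fell. Of all 131 microRNA features tested, 38 (29%) rose and 7 (5.34%) fell. All 8 relatives had positive log2 fold changes, with a median of 0.45 against 0.43 over all 131. Mir23b, the paralogue of Mir23a, was at 0.576%, 0.928%, 0.886% and 0.529% of microRNA counts in knockouts, against 0.347%, 0.329% and 0.429% in controls. It was higher by 0.99 ± 0.27 in log2 units (SE; edgeR adjusted p = 0.0222). Mir27b, a main microRNA of these libraries, averaged 11.9% of microRNA counts in knockouts and 8.19% in controls, higher by 0.54 ± 0.17 in log2 units (edgeR adjusted p = 0.0399). Mir199b, the one source of miR-199a-3p with counts, had 16, 77, 26 and 6 counts in knockouts and 36, 3 and 14 in controls, higher by 1.11 ± 0.34 in log2 units (edgeR adjusted p = 0.0318). Which strand of Mir199b was counted is not known, so this is not a measure of miR-199a-3p. Each of these 3 calls was lost when control 1, 2 or 3 or knockout 2 or 3 was left out, with Mir143 out of the denominator and with TMM scaling. Within the miR-15 family, Mir15b had a log2 fold change of 0.46 ± 0.30 and did not pass the test (edgeR adjusted p = 0.266).

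Other microRNAs known from cardiac stress moved in both directions. Of 25 listed, 14 were tested on shares, 5 rose and 4 fell, with a median log2 fold change of 0.13. Mir208b, which lies in the gene of the slow myosin heavy chain Myh7, had 621, 495, 188 and 53 counts in knockouts and 79, 30 and 36 in controls, which is 3.10 ± 0.55 on the log2 scale (SE; edgeR adjusted p = 0.00366). Knockout 1, at 0.764% of microRNA counts, stood far above the other knockouts, at 0.197% to 0.249%, and without it the log2 fold change was 2.43 (edgeR adjusted p = 0.000508). Mir222 (2.23 ± 0.32, edgeR adjusted p = 0.00157) and Mir221 (1.82 ± 0.24, 0.00132) had larger fold changes than every member, a difference that was not tested. Mir150, known from lymphocytes and as a brake on hypertrophy, fell by 0.96 in log2 units (SE 0.20; edgeR adjusted p = 0.00751).

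The microRNAs nearest to each member in their pattern over the 7 libraries were named by their correlation. The log2 share of Mir210 had a Pearson r of 0.97 with Mir301 and of 0.97 with Mir208b, that of Mir24-2 an r of 0.99 with Mir148a and of 0.98 with Mir107, and that of Mir23a an r of 0.96 with Mir222 and of 0.95 with Mir744. Mir195a was nearest to Mir423 (r = 0.97) and Mir29a (r = 0.96), and Mir27a to Mir31 (r = 0.93) and Mir501 (r = 0.89). These values describe 7 libraries that share their microRNA total as the denominator and differ between the groups, so microRNAs nearest to a member that differs will tend to differ too.

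Messenger RNA fragments in the same libraries gave a partial view of the hypoxia response and of reported targets. Of 26 hypoxia response genes, 9 were tested on normalised counts, 2 rose and none fell, with a median log2 fold change of 0.05 against 0.02 over all features. Hif1a, the oxygen-regulated subunit of the factor that induces Mir210 in hypoxic cells and itself a reported target of miR-199a, was at 35.1, 48.2, 41.0 and 38.2 CPM in knockouts, against 9.06, 6.27 and 2.74 in controls. Its raw counts were 23, 48, 62 and 121 in knockouts and 9, 16 and 4 in controls. Its log2 fold change was 2.77 ± 0.40 (SE; edgeR adjusted p = 0.0102). The call was lost without control 2 (edgeR adjusted p = 0.0879) or control 3 (0.0796), and with scaling to total counts (log2 fold change 3.67, 0.0863). Hk1, a hexokinase that binds mitochondria, averaged 31.8 ± 4.04 CPM in knockouts (SD, n = 4) and 10.7 ± 4.08 in controls (SD, n = 3), higher by 1.58 ± 0.33 in log2 units (edgeR adjusted p = 0.0347), and was no longer called when any library but knockout 1 or 4 was left out, with adjusted p up to 0.151. Vegfa, the angiogenic growth factor (-0.53 ± 0.32, edgeR adjusted p = 0.361), and Egln1, the prolyl hydroxylase that marks Hif1a for decay (-0.75 ± 0.38, 0.284), did not pass the test.

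Of 19 reported targets of the members, 7 were tested, and Hif1a was the one that passed. Ndufa4, a respiratory chain subunit, is a reported target of miR-210. It had 5, 10, 17 and 33 raw counts in knockouts and 19, 39 and 21 in controls, which is few. In CPM it was at 7.64, 10.04, 11.2 and 10.4 in knockouts, against 19.1, 15.3 and 14.4 in controls. These groups did not overlap on this scale, and the log2 fold change of -0.68 ± 0.23 did not pass the test (edgeR adjusted p = 0.115). It turned to 0.31 with scaling to total counts and to 0.059 with TMM on microRNAs, and as a share of all counts the groups overlapped, with knockouts 3 and 4 above every control. Slc8a1, the sodium-calcium exchanger reported as a target of miR-214, stood at 0.85 ± 0.32 on the log2 scale (edgeR adjusted p = 0.156), and Jph2, a target of miR-24, at -0.20 ± 0.30 (0.755). The fragments of a messenger RNA in a small RNA library are not a measure of its protein.

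Sums of cell type markers separated the groups for some lists on the TMM scale, and for none as a share of all counts. The 6 cardiomyocyte markers summed to 1263 to 1912 CPM in knockouts and to 2704 to 3679 in controls, and none of them was called or at 0 throughout. This separation rested on the TMM factors, which ran from 0.515 in knockout 1 to 3.28 in knockout 4: as a share of all counts, with no such factor, the same markers took 0.0865%, 0.123%, 0.196% and 0.586% in knockouts, against 0.234%, 0.286% and 0.196% in controls. The groups then overlapped, knockout 4 being the highest of all. The 8 fibroblast markers summed to 254 to 731 in knockouts and 261 to 449 in controls, where Postn, a marker of activated fibroblasts, rose (log2 fold change 2.69 ± 0.58, edgeR adjusted p = 0.0366), while of the other 7, none of which passed the test, 4 had positive and 3 negative log2 fold changes. The 5 endothelial markers summed to 43.2 to 120 in knockouts and 95.6 to 180 in controls, and the 6 white blood cell markers, of which Mir142hg was at 0 throughout, to 9.91 to 19.2 in knockouts and 24.2 to 36.3 in controls. The 4 erythroid markers summed to 4.02 to 16.8 in knockouts and 9.02 to 14.4 in controls. Cd74 of white blood cells fell by 2.12 in log2 units (SE 0.43; edgeR adjusted p = 0.0342) and Acta2 of smooth muscle by 1.43 (SE 0.33; edgeR adjusted p = 0.0428). Raw counts were low: Cd74 had 3, 2, 2 and 18 in knockouts and 12, 52 and 22 in controls. Acta2 had 1, 4, 6 and 16 in knockouts and 9, 29 and 18 in controls. Postn had 8, 26, 53 and 174 in knockouts and 2, 16 and 9 in controls. Of the 3 white blood cell markers tested, Cd74 was the one called, and 1 of the others had a positive log2 fold change. The calls of Postn, Cd74 and Acta2 were lost with scaling to total counts and without control 2 or 3, and for Cd74 and Acta2 without knockout 2 or 3 as well, and for Postn without control 1. Fewer cells of a type and less RNA from each cell cannot be told apart in such tissue, and the part of cell composition in the members' differences was not tested.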

How the data were processed

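Small RNA of crude heart mitochondria was sequenced single end on a MiSeq after a small RNA library kit, per the labels' protocols. Raw counts per feature were made and deposited by the authors; the submitters' processing notes name featureCounts, Bowtie2, cutadapt 1.10 and build mm10 among their tools. The strand setting, and what was done with reads of several positions, were not stated. The authors' deposited table of comparison results holds normalised signal means, log2 fold changes, a Wald score and p-values, per the file headers; the deposited normalised signal files were not used.

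Members were joined by row identifier to the raw counts of 4 knockout and 3 control libraries. edgeR 4.0.16 in R 4.3.3 (quasi-likelihood test, default filter with a minimum count of 10, Benjamini-Hochberg adjustment over all features tested, threshold 0.05) was fitted to all features with TMM scaling, giving 1505 tested, and to microRNA features with the microRNA total as library size, giving 131 tested. All 5 members with counts passed both filters. CPM values use the effective library sizes of edgeR. The SE beside an edgeR log2 fold change is its absolute value divided by the square root of the test's F statistic. The standard errors in the authors' table are their own. Ratios were tested with exact permutation over 35 splits (scipy 1.17.1). Positions are from GENCODE M21. The procedure was also run on simulated counts with 1 fixed spread for all features and 1 composition for all libraries apart from planted changes. The real libraries differed more in composition, so that run does not show how well the procedure works on them. The members, lists and tests were chosen with earlier results of these data known. Named were all members, up to 4 genes of each list with the smallest p on normalised counts, the largest feature and the 2 microRNAs most like each member. Mir24-1, Mir497 in its ratio and the genes behind the 4 members at 0 were added after their values were seen. So were Snord43, Gm23935, Mir6240 and Mir6236 as parts of the microRNA total.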

Additional observations from a re-analysis of the deposited data

Results flagged for a closer look

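In the 4 knockout libraries, the share of Mir208b among microRNA counts was 0.764% in knockout 1, far from the other knockouts, at 0.197%, 0.249% and 0.236%, and the gap to the nearest of them was 0.909 of the whole range of the group. Of 40 sets of 4 knockout values examined, this was the 1 that stood out, and chance gives about 1 in 20.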

How the results depend on the processing

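The share fit kept its count within 1.5 times of 45 except without a control library. With 1 library left out, its count ran from 24 to 49. The log2 fold change then ran from 0.58 to 0.79 at Mir23a and from 0.41 to 0.60 at Mir195a. Mir23a lost its call without a low-count filter (0.66), without Mir143 in the denominator (0.46) and with TMM (0.35). Mir195a was called by DESeq2 (0.54), and Mir27a was -0.11 with TMM.

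The fit over all features gave 8 calls with total counts scaling, 0 with TMM on microRNAs (19 at an unadjusted p under 0.05), 192 without a filter and 231 with DESeq2. With 1 library left out it gave 0 to 75. There the log2 fold change ran from -0.056 (without knockout 2) to 2.05 at Mir23a, from -0.070 (without knockout 2; -0.048 without control 2) to 1.88 at Mir195a and from -0.41 (without knockout 2; -0.22 without control 2) to 1.56 at Mir27a, which was -0.14 with TMM on microRNAs. Scaling to total counts, which moved the median of all features to 0.93, gave 0.24 at Egln1, 0.85 at Jph2, 0.31 at Ndufa4 and 0.61 at Vegfa, and TMM on microRNAs 0.51 at Jph2, 0.059 at Ndufa4 and 0.37 at Vegfa. The causes were not tested.

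Left-out libraries gave 0.62 to 0.80 for Mir24-2 over Mir23a and -0.52 to -0.32 for Mir27a over Mir23a, where no exact p can pass. Doubling the smaller tail, the definition computed first and listed as an alternative after seeing the data, left the differences at 0.72 and -0.44 and the exact permutation p at 0.0571. The summed share differed by 0.58 percentage points, and by 0.082 as a share of all counts.

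Deviations of libraries with the same replicate number correlated at 0.53, -0.80 and 0.32. The labels do not say whether the numbers pair mice, and 3 such values cannot decide it. With the replicate number as a block, 0 of 1505 features (edgeR; 338 at an unadjusted p under 0.05) and 32 microRNA features were called, Mir210, Mir24-2 and Mir23a among these. The blocked ratio differences were 0.67 and -0.49 (exact sign-flip p = 0.25, the smallest 3 pairs allow). Knockout 4 limits precision, with 22486 microRNA counts.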
